A study of Mus musculus with 6 samples.

Results

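The genes described here are 10 components of transforming growth factor beta (TGF-beta) signalling, namely the ligand Tgfb1, the receptors Tgfbr1 and Tgfbr2, the co-receptors Tgfbr3 and Eng, the signal transducers Smad2, Smad3 and Smad4, and the negative regulators Smad7 and Skil. They are 10 of 18193 genes with a probe set of their own on the array, and they were chosen by the measured signals and detection calls of Tgfbr3, which was lost in fusion cells, so the values of Tgfbr3 are given as a description and without a test. All probe sets annotated to 1 of these symbols alone were taken, 24 in all. The cells were 32D, an interleukin-3-dependent myeloid line from bone marrow of C3H/HeJ mice infected with Friend leukemia virus. RNA came from 3 samples mock-transduced with the vector MSCVpuro and 3 samples transduced with the fusion gene Nup98::Nsd1, with 1 Affymetrix Mouse430_2 array each. The labels give no time after transduction, no added ligand or inhibitor of the pathway, and no word on whether a transduced population was a clone or a pool.

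TGF-beta is secreted as a latent dimer and, once activated, is bound by the kinase receptor Tgfbr2, which recruits and phosphorylates the kinase receptor Tgfbr1. Tgfbr1 phosphorylates Smad2 and Smad3, which join Smad4 and enter the nucleus to regulate transcription, while Smad7 blocks the receptor and Skil (SnoN) represses transcription together with SMAD proteins. In blood formation the pathway is known for restraining the growth of progenitors. Tgfbr3 (betaglycan) binds ligand outside the cell and passes it to the kinase receptors, and Eng (endoglin) is another co-receptor.

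The promoters of the signal transducer and of the receptor that rose as deposited and had an entry in the RefSeq table (GRCm38.p6) are shown first, each with 250 bases before and 50 after the annotated start. The capitals mark the SMAD-binding CAGA element, searched as CAGAC, and the GC box, searched as GGGCGG, on both strands. The Smad3 promoter lies at chr9:63757945-63758244 and that of Tgfbr2 at chr9:116175314-116175613, both on the minus strand, and each is printed 5′ to 3′ on the strand of its gene.
Smad3 promoter: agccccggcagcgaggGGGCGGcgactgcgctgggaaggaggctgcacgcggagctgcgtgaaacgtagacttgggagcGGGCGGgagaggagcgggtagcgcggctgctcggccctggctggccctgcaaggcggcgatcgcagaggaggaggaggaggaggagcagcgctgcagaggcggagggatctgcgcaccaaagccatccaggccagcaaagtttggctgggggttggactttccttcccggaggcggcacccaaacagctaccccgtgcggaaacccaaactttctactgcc
Tgfbr2 promoter: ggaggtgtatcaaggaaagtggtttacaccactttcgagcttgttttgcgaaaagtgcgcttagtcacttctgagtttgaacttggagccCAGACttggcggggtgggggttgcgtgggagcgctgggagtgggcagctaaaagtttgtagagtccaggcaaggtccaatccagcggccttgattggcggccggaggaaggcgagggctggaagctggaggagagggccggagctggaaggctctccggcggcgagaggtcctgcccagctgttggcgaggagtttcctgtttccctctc
The Smad3 sequence held 2 GC boxes and no CAGAC, and that of Tgfbr2 held 1 CAGAC and no GC box. Of all 32851 promoter sequences of this length, 49.6% held CAGAC and 35.7% held GGGCGG. The palindromic SMAD element GTCTAGAC, whose letters do not contain CAGAC, was in 0.213% of all promoters and in neither of these. Among the other members with an entry, the Tgfb1 promoter held 6 GC boxes and no CAGAC, the first of 2 Tgfbr1 promoters 2 GC boxes, the second 1 CAGAC, and the Eng promoter 2 CAGAC. The Smad3 sequence had 25 CpG dinucleotides and that of Tgfbr2 had 15, against a median of 7 over all promoters. A match of letters is a description of the sequence and was not measured as a binding site.

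Signals are intensities scaled by the MAS5 software, on a linear scale. Each comes with a MAS5 detection call, Present or Absent in the values below. To be tested, a probe set had to be Present throughout 1 of the groups. This held for 18 of the 24, with at least 1 for every member. The 6 probe sets that were not tested were Absent on every array. Log2 changes are Nup98::Nsd1 minus mock, and a change was called at an adjusted p of up to 0.05 in limma over all 20494 tested probe sets. Over these, the median log2 change was 0.15 as deposited and became -0.0090 after quantile normalization, -0.02 with median centring, -0.04 with 75th percentile centring and -0.25 when arrays were scaled to their hybridization controls. A log2 change near 0.15 is therefore in the middle of the array. As deposited, 42.3% of tested probe sets were called higher and 27.6% lower, and with hybridization control scaling 21.3% were higher and 49.2% lower.

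The 32D identity was checked on marker genes. Of 10 myeloid progenitor markers, 8 were Present on all mock arrays and 7 on all Nup98::Nsd1 arrays. Kit and Cd34 were Present on none, and Elane was the gene that differed. The mock arrays had a summed signal of 50541 to 53210.0 for these markers, and the Nup98::Nsd1 arrays one of 36010.5 to 36962. Of 5 macrophage markers, 4 were Present on all arrays of both groups, with summed signals of 5082 to 5289 in mock and 7237 to 7437 in Nup98::Nsd1 cells. Of 8 fibroblast and stromal markers 0 were Present on all arrays of a group, and their signal summed to 259 to 329 per mock array and 293 to 385 per Nup98::Nsd1 array. Of 7 endothelial markers, Pecam1 and Tie1 were Present on all arrays of both groups and Vwf on all Nup98::Nsd1 arrays, while Kdr, Tek and Emcn were Present on none. The endothelial signal summed to 3293 to 3679 per mock array and 3162 to 3578 per Nup98::Nsd1 array. Of 5 T and NK cell markers on the array 0 were Present on all arrays of a group, and of 3 B cell markers Cd79b was, in both groups. The ratio of 3' to 5' signal of the Actb control, which depends on RNA integrity, averaged 1.18 ± 0.030 over the mock arrays and 1.47 ± 0.026 over the Nup98::Nsd1 arrays (SD, n = 3 each). For the Gapdh control the ratio differed less, at 0.760 ± 0.016 over the mock arrays and 0.816 ± 0.024 over the Nup98::Nsd1 arrays. The progenitor and macrophage sums and both ratios move with the groups in every comparison below, and their part in the results was not tested. In RNA from whole cultures, fewer cells that express a gene and less of its RNA per cell cannot be told apart.

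Tgfbr3, the co-receptor betaglycan, was on in mock cells and not detected in Nup98::Nsd1 cells. Its brighter probe set, 1433795_at, gave signals of 358, 489 and 473 on the mock arrays, each Present. On the Nup98::Nsd1 arrays it gave 15.1, 6.84 and 6.52, each Absent with detection p-values of 0.805, 0.962 and 0.870. The groups lay far apart, and every mock array was above every Nup98::Nsd1 array. The means were 440.0 ± 71.6 and 9.48 ± 4.85 (SD, n = 3 each). The fall was 31.2-fold when each Nup98::Nsd1 signal under the lowest Present signal of its array was raised to that level. That level belongs to the dimmest Present probe set of the array and is not a detection limit of 1433795_at. The true size of the fall was not measured. The other Tgfbr3 probe set, 1425620_at, was Absent on all 6 arrays, at 58.4, 68.6 and 42.0 in mock and 40.5, 42.6 and 2.57 in Nup98::Nsd1 cells, so it measured the gene in neither group.

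Apart from Tgfbr3, the largest differences were in the SMADs and in Skil. Of the 17 tested probe sets of the other 9 members, 7 rose, 3 fell and 7 were not called. That is 58.8% called, where 69.9% of all tested probe sets were called, in the shares given above. Groups did not overlap at 10 of the 17, or 58.8%, against 73.2% of all tested probe sets. At its brightest probe set, 5 of the 9 genes rose, 2 fell and 2 were not called, where 72.3% of all tested genes were called. Skil was at least 2-fold higher and Smad3, at 1.995-fold, fell just short of it, beside 9.53% of all tested genes at least 2-fold higher. None of the 9 was at least 2-fold lower, as were 2.6% of all. The members were chosen with this comparison known, and nothing is read from these shares. The median log2 change of the 17 probe sets was 0.19, beside the 0.15 of all tested. The count of 3 that fell was 1 without mock replicate 1, without mock replicate 2 or without Nup98::Nsd1 replicate 3, and 1 with no filter on detection.

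**Figure D1:**
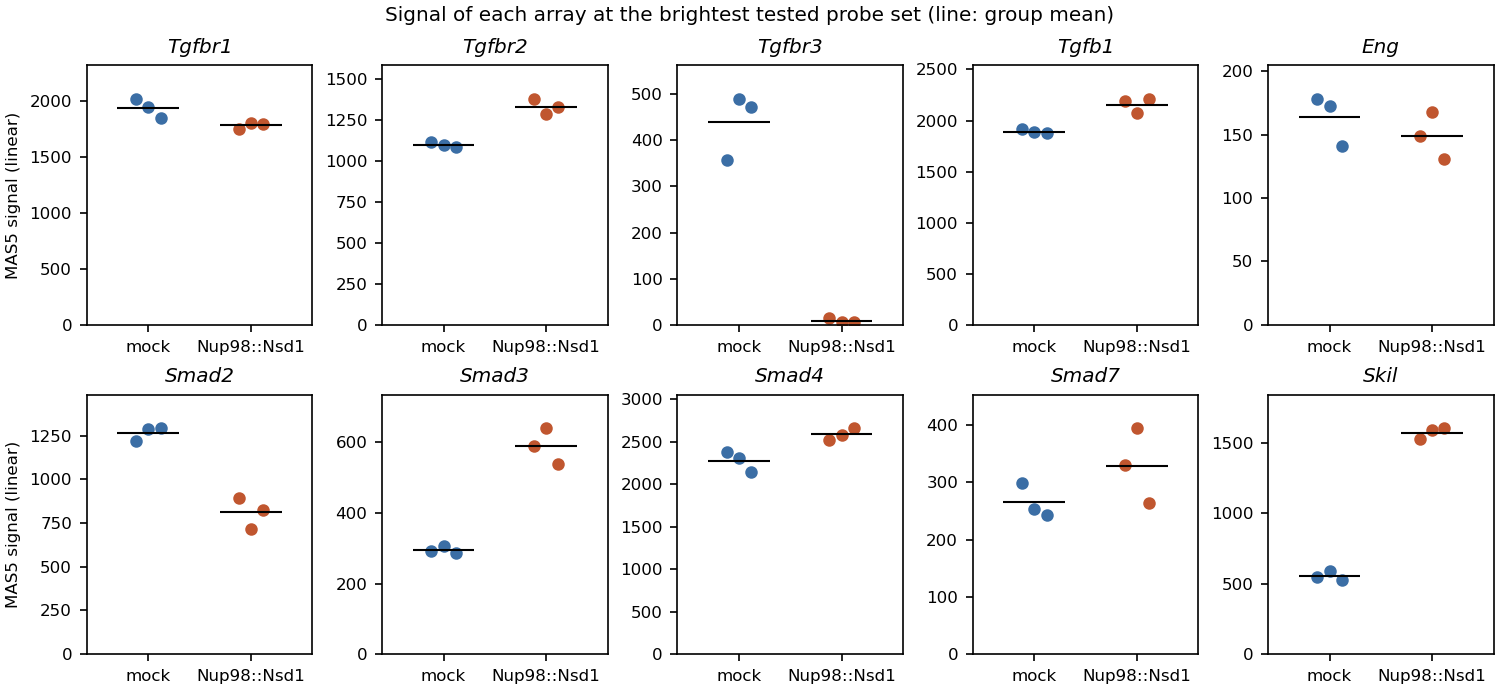
MAS5 signal on a linear scale starting at 0 for each of the 6 arrays, at the brightest tested probe set of each of the 10 genes; points are arrays and lines are group means. The mock and Nup98::Nsd1 arrays are apart for Tgfbr3, Skil, Smad3 and Smad2, close together for Tgfbr1, Tgfbr2, Tgfb1 and Smad4, and overlapping for Eng and Smad7.

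**Figure D2:**
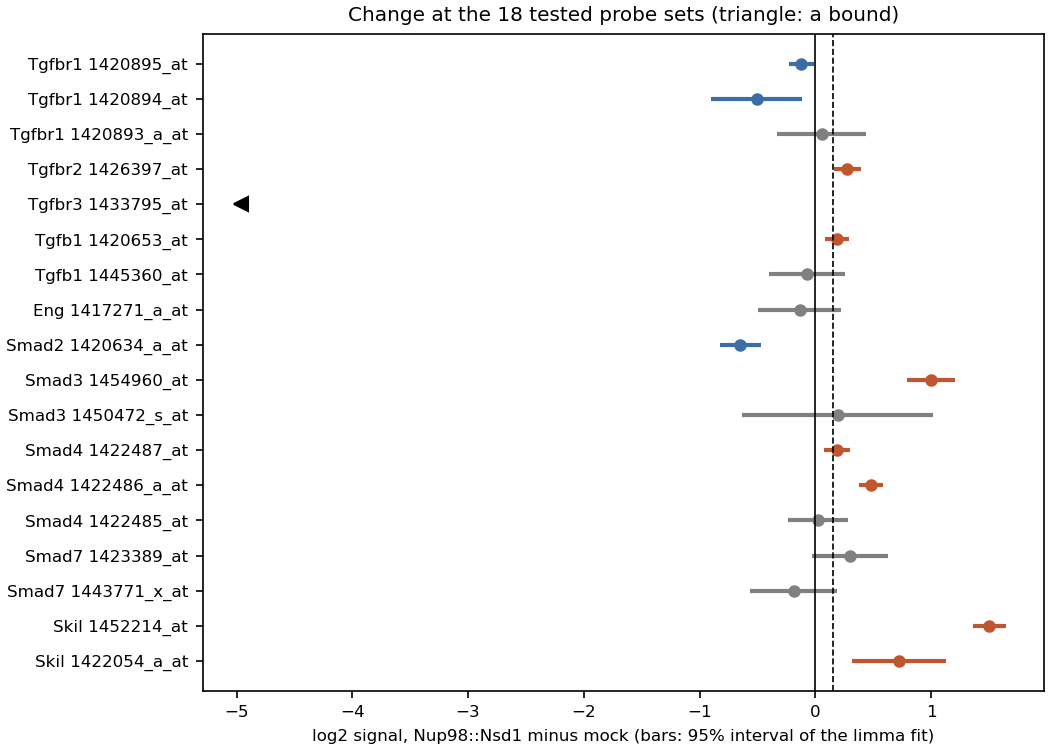
Log2 change, Nup98::Nsd1 minus mock, at the 18 tested probe sets, with 95% intervals of the limma fit. Red was called higher, blue lower and grey not called. The black triangle marks Tgfbr3 at 31.2-fold lower, with each Nup98::Nsd1 signal under the lowest Present signal of its array raised to that level. That level is not a detection limit of the probe set. The triangle, titled a bound, thus does not measure the size of the fall. The dashed line is the median of all tested probe sets, 0.15. The brightest probe sets of Skil (1.50), Smad3 (0.9965) and Smad2 (-0.65) lie farthest from the dashed line after Tgfbr3.

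Among the receptors, Tgfbr1, the type I receptor kinase, fell at 2 of its 3 tested probe sets. The brightest, 1420895_at, gave 2016, 1946 and 1848 in mock and 1746, 1806 and 1791 in Nup98::Nsd1 cells. The groups did not overlap, but the gap between them was small beside the spread of the mock arrays. The log2 change was -0.12 (SE 0.050, limma adjusted p = 0.0497), at the edge of the threshold, and it did not pass after quantile normalization (-0.10, adjusted p = 0.0909). It passed with median centring (-0.29), with 75th percentile centring (-0.32) and with hybridization control scaling (-0.52), and of the 6 fits that left out 1 array it passed only without mock replicate 3. A second probe set, 1420894_at, gave 189, 206 and 156 in mock and 147, 136 and 106 in Nup98::Nsd1 cells. It fell by 0.50 on the log2 scale (SE 0.18, limma adjusted p = 0.0253), and was called lower under all 5 scalings. The call was lost without mock replicate 1 (-0.48, adjusted p = 0.0659), without mock replicate 2 (-0.42, adjusted p = 0.0988), without Nup98::Nsd1 replicate 3 (-0.36, adjusted p = 0.0935) and with no filter on detection (adjusted p = 0.0586). The third, 1420893_a_at, stood at 112 ± 10.5 and 116 ± 6.87 (SD, n = 3 each) and was called under none of them.

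Tgfbr2, the type II receptor that binds ligand first, was slightly higher as deposited. Its only tested probe set gave 1119, 1098 and 1088 in mock and 1379, 1289.8 and 1332 in Nup98::Nsd1 cells, with no overlap. It rose by 0.28 on the log2 scale (SE 0.054, limma adjusted p = 6.86e-04), and by 0.23 after quantile normalization, but was not called with median centring (0.11), with 75th percentile centring (0.08) or with hybridization control scaling, where its sign turned (-0.12). The ratio of Tgfbr2 to Tgfbr1 within an array is the same under any scaling that multiplies a whole array by 1 factor. On the log2 scale it was -0.85, -0.83 and -0.76 on the mock arrays and -0.34, -0.49 and -0.43 on the Nup98::Nsd1 arrays, a shift of 0.40. All 3 Nup98::Nsd1 arrays lay above all 3 mock arrays. Since the level of 1 probe set cannot be set against that of another, this shows an unequal change of the 2 receptors at these probe sets and not how much of each there was.

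Eng, the co-receptor endoglin, was dim in both groups, at 178, 173 and 141 in mock and 149, 168 and 131 in Nup98::Nsd1 cells. The groups overlapped, and Nup98::Nsd1 replicate 3 was called Absent. The log2 change of -0.14 did not pass (95% interval -0.50 to 0.23, limma adjusted p = 0.48), but it was called lower after quantile normalization (-0.54) and with hybridization control scaling (-0.53). With median centring (-0.30) and 75th percentile centring (-0.33) it was not called.

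Tgfb1, the ligand, was bright in both groups. Its signals were 1913, 1887 and 1879 in mock and 2187, 2073 and 2209.8 in Nup98::Nsd1 cells, with no overlap. It rose by 0.19 on the log2 scale (SE 0.047, limma adjusted p = 0.0036), close to the middle of the array, and by 0.22 after quantile normalization. The change was 0.02 with median centring and -0.0083 with 75th percentile centring, neither called, and a called fall of -0.21 with hybridization control scaling. A dimmer probe set, 1445360_at, stood at 217 ± 14.2 and 208 ± 35.9 (SD, n = 3 each) and was not called as deposited, but was called lower after quantile normalization (-0.43) and with hybridization control scaling (-0.47).

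The receptor-regulated SMADs moved in opposite directions. Smad3 gave 292, 306 and 285 in mock and 589.7, 640.0 and 538 in Nup98::Nsd1 cells at its brightest probe set, 1454960_at. Every Nup98::Nsd1 array was well above the highest mock array. The rise was 1.995-fold, or 0.9965 on the log2 scale (SE 0.094, limma adjusted p = 2.13e-06), and the lowest value over the 5 scalings was 0.5975, called higher in each. Of 9641 tested genes, 928 had a larger rise. A second Smad3 probe set, 1450472_s_at, was Absent on mock replicates 1 and 2 and entered the test through the Nup98::Nsd1 arrays alone, with overlapping signals of 45.4 ± 18.5 and 50.7 ± 15.9 (SD, n = 3 each) and no call. Its remaining probe set was Absent throughout.

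Smad2 gave 1217, 1289 and 1292 in mock and 894, 716 and 824 in Nup98::Nsd1 cells. Every Nup98::Nsd1 array was below the lowest mock array. The level was 1.57-fold lower, a fall of 0.65 on the log2 scale (SE 0.079, limma adjusted p = 1.90e-05), and the change was called in each of the 5 scalings, from -1.05 to -0.65. Its other probe set, 1442062_at, was Absent on all arrays and not tested.

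The log2 ratio of Smad3 to Smad2 within an array was -2.06, -2.07 and -2.18 on the mock arrays and -0.60, -0.16 and -0.62 on the Nup98::Nsd1 arrays. It thus shifted by 1.64, or 3.12-fold, with no overlap, and no scaling of whole arrays by a factor alters this shift. These 2 pairs, Smad3 with Smad2 and Tgfbr2 with Tgfbr1, were the only ratios computed, and they were chosen after the values were seen, so they are given without a test.

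Smad4, the partner shared by all receptor-regulated SMADs, had 3 tested probe sets that did not give the same result. The brightest, 1422487_at, gave 2379.7, 2304 and 2142 in mock and 2524, 2580.0 and 2655 in Nup98::Nsd1 cells. It rose by 0.19 on the log2 scale (SE 0.051, limma adjusted p = 0.00647) and by 0.25 after quantile normalization. The change was 0.02 with median centring and -0.0101 with 75th percentile centring, neither called, and a called fall of -0.21 with hybridization control scaling. The second, 1422486_a_at, gave 1607, 1586 and 1529 in mock and 2155, 2217 and 2213 in Nup98::Nsd1 cells, well apart. It rose by 0.48 (SE 0.047, limma adjusted p = 2.68e-06) and was called higher in 4 of the 5 scalings, all but that to the hybridization controls (0.08). The third, 1422485_at, overlapped between groups at 741 ± 128 and 748 ± 69.1 (SD, n = 3 each) and was called under hybridization control scaling alone of the 5 scalings, as lower (-0.37).

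Smad7, the inhibitory SMAD and a target of the pathway, was not called at either tested probe set as deposited. The brighter, 1423389_at, gave 299, 254 and 242 in mock and 330.1, 394 and 263 in Nup98::Nsd1 cells. Nup98::Nsd1 replicate 3 lay within the mock range, and the other two lay above it. The log2 change of 0.30 had a 95% interval of -0.03 to 0.63 (limma adjusted p = 0.096). Without Nup98::Nsd1 replicate 3 it was 0.45 and passed, and it was not called under any of the other 4 scalings, with -0.10 under hybridization control scaling. The dimmer, 1443771_x_at, stood at 152 ± 15.2 and 134 ± 19.8 (SD, n = 3 each) with a log2 change of -0.19 (95% interval -0.57 to 0.19). It was called lower after quantile normalization (-0.61) and with hybridization control scaling (-0.59).

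Skil, the co-repressor SnoN, which binds SMAD proteins and is itself induced by TGF-beta, had the largest rise of the 10 genes. Its brighter probe set, 1452214_at, gave 551, 589 and 527 in mock and 1529.5, 1591 and 1605 in Nup98::Nsd1 cells. The 3 arrays of each group lay close together, with a wide gap between groups. The rise was 2.84-fold, or 1.50 on the log2 scale (SE 0.063, limma adjusted p = 3.51e-09), and 1.11 to 1.50 over the 5 scalings. Of 9641 tested genes, 343 had a larger rise. The dimmer probe set, 1422054_a_at, gave 74.7, 77.2 and 69.1 in mock and 115, 127 and 123 in Nup98::Nsd1 cells. It rose by 0.72 (SE 0.19, limma adjusted p = 0.00448), but was not called after quantile normalization (0.30, adjusted p = 0.179) or with hybridization control scaling (0.32, adjusted p = 0.153).

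**Figure D3:**
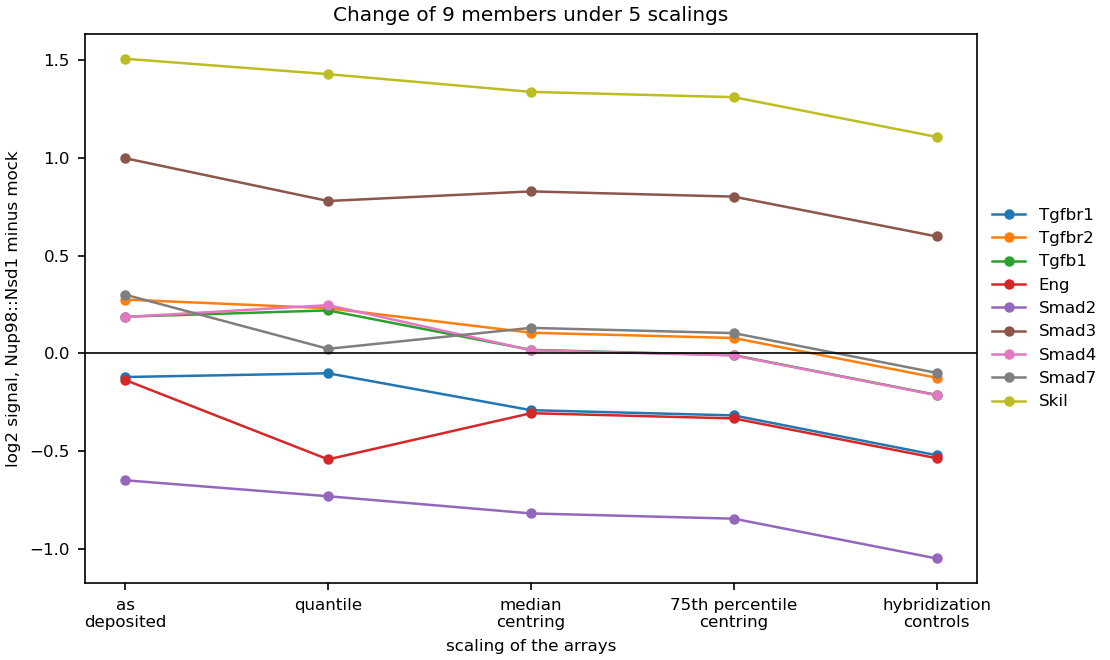
Log2 change, Nup98::Nsd1 minus mock, at the brightest tested probe set of 9 genes (Tgfbr3 left out) under 5 scalings of the arrays; each line is a gene, and those of Tgfb1 and Smad4 nearly coincide. Skil and Smad3 stay above 0 and Smad2 below it under each scaling, while Tgfbr2, Tgfb1, Smad4 and Smad7 cross 0.

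Of the 17 probe sets other than Tgfbr3's, 2 were called higher under all 5 scalings, the brightest of Skil and of Smad3. Another 2 were called lower under all 5, Smad2 and the second Tgfbr1 probe set. The sign turned at 7, and 2 of these, the brightest of Tgfb1 and of Smad4, were called in both directions under different scalings. The same shares over all tested probe sets were not computed, so nothing is read from these counts about the members as a set. The spread between replicates was close to that of the whole array in mock cells and wider in Nup98::Nsd1 cells: over the 18 tested probe sets the log2 signal had a median SD of 0.089 for mock and 0.13 for Nup98::Nsd1 cells, beside 0.097 and 0.095 over all tested probe sets.

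Genes with other roles in the pathway were followed in lists made by function. Of 36 tested genes, 20 rose and 6 fell, where 42.9% of all tested genes rose and 29.5% fell, and their median log2 change was 0.30. With hybridization control scaling, which lowers the whole array as given above, 10 rose and 14 fell. Nothing is read from these counts, or from those of the lists below, about the genes as a set. Among the 35 genes Present on all 6 arrays, which leave out Acvr2b, 19 rose and 6 fell. Of 11 other ligands on the array, among them Tgfb2, Tgfb3, the activin chain Inhba and several bone morphogenetic proteins (BMPs), 0 were detected well enough to be tested, so Tgfb1 was the only ligand of the lists with a measured change.

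Of 4 tested genes for latency and activation of the ligand, 2 rose and 1 fell. Furin, the protease that cleaves the TGF-beta precursor, rose 1.68-fold, from 572 ± 20.3 to 961 ± 49.6 (SD, n = 3 each; limma adjusted p = 1.74e-06). Itgav, the alpha chain of integrins that activate latent TGF-beta, rose 1.72-fold, from 1732 ± 74.2 to 2977 ± 37.0 (adjusted p = 5.72e-08), with 1 of its 3 tested probe sets not called. The integrin beta chains Itgb6 and Itgb8, which pair with it for that purpose, were Present on no array. Nrros, which holds latent TGF-beta on myeloid cells, was 1.29-fold lower, from 3177 ± 248 to 2464 ± 90.8 (adjusted p = 1.85e-04). All 3 calls held under each of the 5 scalings.

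Of 4 other tested receptors, Bmpr2 and Acvr1b were called higher as deposited and 1 was not called, with Acvr2b left out of this count. Acvr2b, an activin type II receptor, was Absent on 1 mock array and entered the test through the Nup98::Nsd1 arrays alone, so its difference, from 113 ± 16.5 to 243 ± 13.3 (SD, n = 3 each), is given as a description. Bmpr2, a BMP type II receptor, rose by 0.39 and Acvr1b, an activin type I receptor, by 0.30 on the log2 scale, but Bmpr2 was called in 4 of the 5 scalings and Acvr1b in 2. With hybridization control scaling both stood below 0, at -0.0095 and -0.09, and were not called.

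The 3 tested SMADs outside the TGF-beta branch all rose as deposited. Smad1, a transducer of BMP signals, gave 163, 131 and 153 in mock and 259, 293 and 318 in Nup98::Nsd1 cells. The groups did not overlap, and the 1.95-fold rise (limma adjusted p = 8.06e-05) was called in each scaling and at both tested probe sets. Smad6, an inhibitory SMAD of the BMP branch, rose 1.90-fold, from 51.9 ± 8.50 to 98.8 ± 18.9 (SD, n = 3 each; adjusted p = 0.00576), and was called in 3 of the 5 scalings. Smad5, another BMP transducer, rose by 0.29 at its brighter probe set, where it was called in 1 of the 5 scalings and the change became -0.11 with hybridization control scaling, and was called lower, at -0.70, at its other one.

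Of 14 tested SMAD regulators, 6 rose, 3 fell and 5 were not called, which became 2 higher and 8 lower with hybridization control scaling. Nedd4l, a ubiquitin ligase that targets activated SMADs, rose 2.13-fold (573 ± 14.1 to 1219 ± 17.7, limma adjusted p = 2.56e-08) at its brightest probe set, with log2 changes of 1.09 to 3.63 over its 3 tested probe sets. Trim33, a ubiquitin ligase that binds Smad4 and the receptor-regulated SMADs, rose 1.86-fold (adjusted p = 3.31e-07). Strap, a protein that binds the receptors and Smad7, was 1.86-fold lower (4866 ± 50.5 to 2619 ± 41.0, adjusted p = 5.34e-09). Usp15, a deubiquitinase of receptors and SMADs, was 1.67-fold lower at its brightest probe set (adjusted p = 7.94e-08) and called higher at another. Each of these 4 was called in the same direction in all 5 scalings.

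Of 11 tested SMAD target genes, 6 rose, 2 fell and 3 were not called, and with hybridization control scaling 4 rose and 5 fell. Tsc22d1, a transcription factor induced by TGF-beta, rose 2.38-fold (1082 ± 34.9 to 2575 ± 52.5, limma adjusted p = 2.08e-09), with all 6 of its tested probe sets called higher. Klf11, a TGF-beta-inducible zinc finger factor, rose 2.17-fold (266 ± 32.6 to 576 ± 32.5, adjusted p = 2.38e-06), and Vegfa, an angiogenic factor, 2.05-fold. Cdkn1a, the inhibitor p21, rose by 0.45 on the log2 scale and was at 0.05, not called, with hybridization control scaling. The 2 that fell, chosen for naming after their values were seen, were Id1 and Id2, inhibitors of helix-loop-helix factors and targets of the BMP branch, 1.35-fold and 1.45-fold lower (adjusted p = 3.07e-06 and 8.06e-05). Both falls were called in each scaling. The 3 not called as deposited were Klf10 (0.15), Myc (0.06) and Runx1 (-0.17), and all 3 were called lower with hybridization control scaling. Runx1 was called higher at 1 of its 4 tested probe sets. Cdkn2b, Id3, Ccn2 and Tgfbi were Present on no array.

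**Figure D4:**
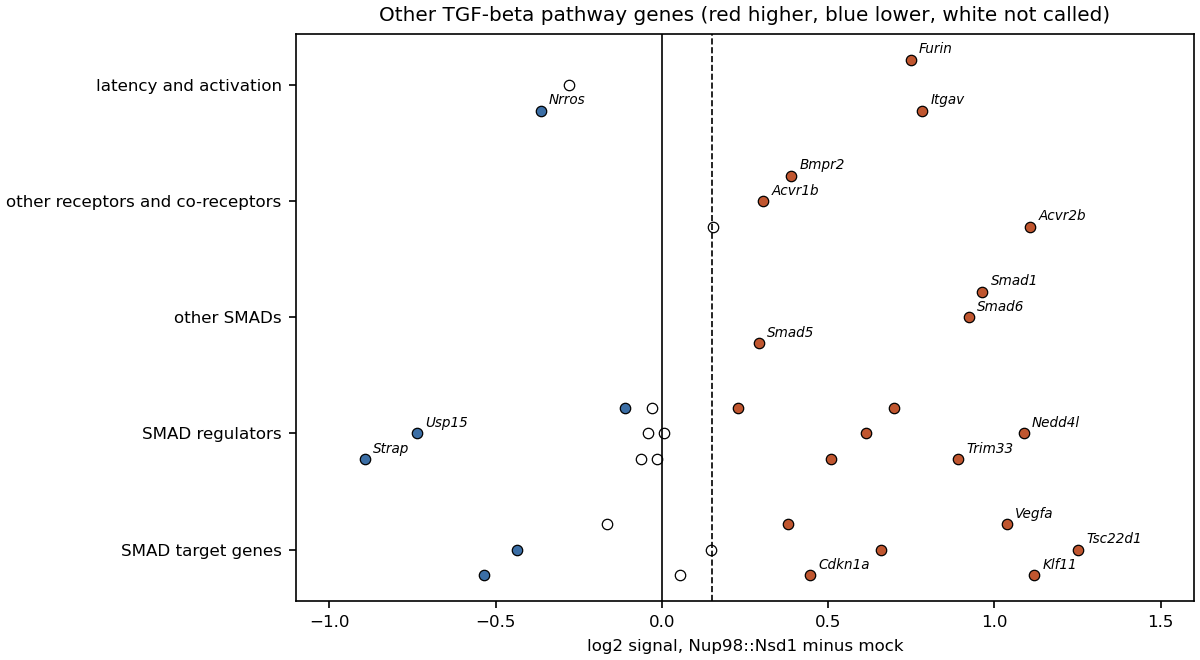
Log2 change, Nup98::Nsd1 minus mock, of the 36 tested genes of 5 other lists of the pathway, each at its brightest tested probe set; red was called higher, blue lower and white not called, the dashed line is the median of all tested probe sets, 0.15, and vertical offsets within a list only separate the points. Values run from -0.89 for Strap to 1.25 for Tsc22d1.

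The genes whose pattern was most like that of Tgfbr3 were sought among the 50 other genes with the same 6 calls, Present on each mock and Absent on each Nup98::Nsd1 array. These made up 0.519% of the 9641 tested genes, while 151 genes had the opposite calls. By the correlation of their log2 signals with those of Tgfbr3 over the 6 arrays, which the split into groups alone makes high, the first 5 were Dmkn (r = 0.996), Fam234b (0.995), Svs2 (0.992), 5730460C07Rik (0.990) and Tmem243 (0.986). Dmkn went from 402 ± 23.2 to 96.1 ± 25.8 and Tmem243 from 85.7 ± 13.6 to 18.2 ± 5.09 (SD, n = 3 each). The median log2 change of the genes with these 6 calls was -0.72. Dmkn was 4.27-fold lower, Fam234b 3.47-fold, Svs2 5.89-fold, 5730460C07Rik 1.77-fold and Tmem243 4.78-fold. No signal of the 5 was raised, since none lay under the lowest Present signal of its array. These ratios rest on Absent signals, so the true size of each fall was not measured.

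The few genes near Tgfbr3 that could be tested, on 1 side of it alone, were detected in both groups. Of the 5 nearest protein-coding genes on each side in RefSeq's order, a choice made after the Tgfbr3 values were seen, 7 had a probe set and 3 were tested, all 3 on the same side. Cdc7, the replication kinase and nearest of the 3, went from 2275 ± 74.0 to 1858 ± 38.0 (SD, n = 3 each), a fall of 0.29 on the log2 scale (limma adjusted p = 1.71e-04). Zfp326 went from 1826 ± 99.9 to 1284 ± 39.4, a fall of 0.51 (adjusted p = 8.06e-06), and Zfp644 from 950.2 ± 109 to 883 ± 105, with no call. All 3 were Present on every Nup98::Nsd1 array. Of the 3, 2 were called lower, beside 29.5% of all tested genes, and nothing is read from this about the region.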

How the data were processed

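RNA was measured on 6 single-colour arrays, 3 mock and 3 Nup98::Nsd1, grouped by the sample titles. Per the file headers and the submitters' processing notes, the authors used MAS5, and the deposited signal is a scaled intensity; the detection p-value beside it, also deposited, was Present up to 0.0474 and Absent from 0.0652. For the MAS5 version and its scaling target, no source used here has a value. Intensities in the authors' series matrix were the same (largest relative difference 5e-06).

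Of 45101 probe sets, 64 controls were left out. Probe sets with 1 symbol in the platform annotation numbered 34945, of which 34741 were matched by Entrez identifier to RefSeq symbols. Signals under 1 were raised to 1 (3183 signals) and log2 was taken, with no further scaling. The groups were fitted with limma 3.58.1 (R 4.3.3; eBayes with an intensity trend), with Benjamini-Hochberg adjustment across 20494 tested probe sets. A gene outside the 10 was represented by its brightest tested probe set. The script was tested on simulated data.

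Named were all members, up to 4 called genes of each list with the smallest p, and the 5 genes most like Tgfbr3. Outside this rule, Id1 and Id2 were named after their values were seen. So were Klf10, Myc, Runx1, tested neighbours of Tgfbr3, marker genes and undetected genes. Members and lists were chosen with earlier results of these data known. Whether the samples were separate cultures is not in the labels, so p-values reflect the spread among these 6 samples alone, which may be technical, and the number of arrays limits the precision. Log2 signals correlated at 0.937 to 0.942 within groups and 0.918 to 0.925 between groups across probe sets, which are not independent. Alternatives were a pseudocount of 16, no detection filter, Present on all 6 arrays, 4 other scalings and the series matrix. Fits with no trend, with a replicate block and without each array in turn were also run. The mean of probe sets was used for the other pathway genes alone.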

Additional observations from a re-analysis of the deposited data

How the results depend on the processing

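The rises of Skil and Smad3 and the fall of Smad2 at their brightest probe sets kept direction and call under all 16 alternatives. The count of member probe sets called higher, 7 as deposited, was 2 with hybridization control scaling, 4 with median centring and also 4 with 75th percentile centring. Of all tested probe sets, 42.3% were called higher as deposited, and 21.3%, 32.4% and 31% in these scalings, in that order. The count called lower, 3 as deposited, was 1 with no filter on detection, 5 after quantile normalization and 9 with hybridization control scaling. Of all tested probe sets, 27.6% were called lower as deposited, and 12.3%, 33.8% and 49.2% in these settings, in that order. The counts for other pathway genes, 20 higher and 6 lower, became 10 lower with 75th percentile centring, and 10 higher and 14 lower with hybridization control scaling. Leaving out 1 array at a time gave 7 to 8 member probe sets higher and 1 to 3 lower, and 20 other genes higher and 5 to 6 lower. At the brightest probe sets, the sign turned for Tgfbr2 (-0.12), Tgfb1 (-0.21), Smad4 (-0.21) and Smad7 (-0.10) with hybridization control scaling. It also turned for Tgfb1 (-0.0083) and Smad4 (-0.0101) with 75th percentile centring. Only the falls of Tgfb1 and Smad4 with hybridization control scaling were called, and the other changes of sign were not. Scaling is the only choice altered in these settings. The call at the brightest Tgfbr1 probe set was lost under 9 of 16 alternatives. With the replicate number as a block, 7 member probe sets were higher and 2 lower. Deviations of same-numbered arrays correlated at -0.017, -0.011 and 0.021, and those of differently numbered arrays at -0.033 to 0.045. With 3 arrays per group, this shows no strong shared shift and cannot decide whether the numbers pair the arrays. Detection limits what can be said of Eng, Absent on 1 array, and of the second Smad3 probe set, Absent on 2.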
